A study of Mus musculus with 172 samples.

Results

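The cytosolic heat shock proteins described here are 10 genes: *Hspa1a*, *Hspa1b*, *Hsph1*, *Dnajb1*, *Hspa8*, *Hsp90aa1*, *Hsp90ab1*, *Hspb1*, *Hspa4* and *Chordc1*. They were chosen by name, and all 10 of 10 were listed in the 4 tables of log2 CPM (log2 of CPM, the reads of a gene scaled to a common library size), among 14896 genes in cortex and 14107 in liver. The study took cortex and liver from adult male mice at ZT6 (6 h after light onset), either undisturbed (Ctr) or sleep deprived (SD) for the 6 h before sampling. The authors pooled RNA from several mice of a line within each tissue and state (fewer for BXD79, BXD85 and BXD101) and sequenced 1 library per pool. The 39 pools of each group come from 33 BXD/RwwJ lines, which are inbred mosaics of C57BL/6J and DBA/2J, from 2 pools each of C57BL/6J (B6-1, B6-2) and DBA/2J (D2-1, D2-2), and from the 2 reciprocal F1 crosses (BD-F1, DB-F1). By their genotype labels, BXD96, BXD97 and BXD103 also carry the numbers of BXD48, BXD65 and BXD73 with a letter added. The tests treated them all as separate lines. The labels name no transgene or engineered allele in any group. A BXD line was measured in 1 pool per tissue and state, so the genotype of a line and the mice in its pool cannot be told apart, and p-values measure the spread between pools. BXD/TyJ lines (4, named BXD05, BXD29, BXD29t and BXD32) were kept apart. Below, s.d. is the standard deviation over pools and SE a standard error.

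Heat shock proteins of the cytosol are chaperones that bind unfolded stretches of other proteins. HSP70 proteins (the inducible *Hspa1a* and *Hspa1b* and the constitutive *Hspa8*) hold and release such stretches with the use of ATP, HSP40 proteins such as *Dnajb1* bring them their clients, and HSP110 proteins (*Hsph1*, *Hspa4*) exchange their nucleotide. HSP90 proteins (the stress-inducible *Hsp90aa1* and the constitutive *Hsp90ab1*) fold kinases and steroid receptors together with co-chaperones, of which *Chordc1* is one, and the small heat shock protein *Hspb1* holds unfolding proteins without ATP. Heat shock factor 1 induces many of these genes through heat shock elements, inverted repeats of GAA in their promoters, and prolonged wakefulness is known to raise chaperone transcripts in the brain.

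All 10 genes were higher after SD in both tissues at an adjusted p under 0.05 (limma, Benjamini-Hochberg over all genes of a tissue), where 33% of all genes were called higher in cortex and 21.5% in liver. The median change (SD minus Ctr, log2 CPM) of the 10 genes was 0.67 in cortex and 0.73 in liver, beside -0.01 and -0.00 for all genes. Of the 10 genes, 8 were higher after SD in every one of the 39 pools in cortex and 6 in liver, where 6.48% and 1.02% of all genes were. For *Hsph1* and *Chordc1* in cortex, and for these and *Dnajb1* in liver, every SD pool lay above every Ctr pool. Such a separation was found for 1.01% of all genes in cortex and for 0.0567%, or 8 genes, in liver. The 10 genes were chosen with earlier results of these data known, so these counts are a description and no independent test.

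**Figure D1:**
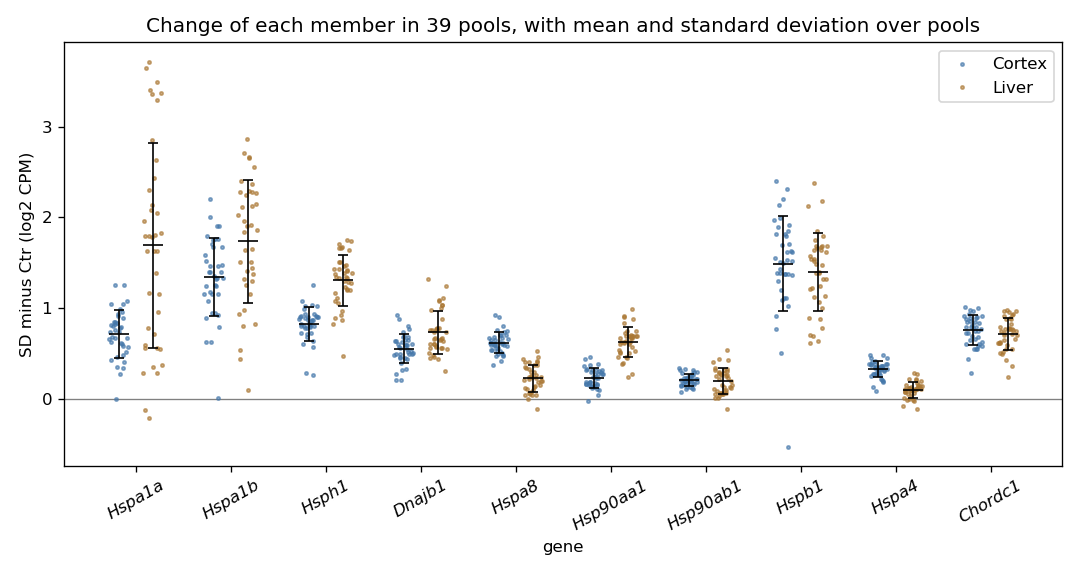
Change of each heat shock gene (SD minus Ctr, log2 CPM) in the 39 pools of cortex (blue) and liver (brown), with the mean as a bar and the s.d. over pools as whiskers. The mean change ran from 0.21 (*Hsp90ab1*) to 1.49 (*Hspb1*) in cortex and from 0.10 (*Hspa4*) to 1.74 (*Hspa1b*) in liver, and the points below 0 are the pools in which a gene was lower after SD.

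Promoters are shown for the genes whose SD and Ctr pools did not overlap in both tissues, *Hsph1* and *Chordc1*, and for the near-identical pair *Hspa1a* and *Hspa1b*, whose levels differed in liver. Each is the RefSeq window of 250 bases before to 50 after a transcription start on GRCm38.p6, written 5′ to 3′ on the strand of the gene. They lie at chr5:149636287-149636586 (*Hsph1*, minus strand), chr9:18292017-18292316 (*Chordc1*, plus strand), chr17:34972107-34972406 (*Hspa1a*, minus strand) and chr17:34959189-34959488 (*Hspa1b*, minus strand). Capitals mark, in the first pair, the matches to the heat shock element GAANNTTCNNGAA on either strand and, in the second pair, the longest stretch that both windows share.
Hsph1: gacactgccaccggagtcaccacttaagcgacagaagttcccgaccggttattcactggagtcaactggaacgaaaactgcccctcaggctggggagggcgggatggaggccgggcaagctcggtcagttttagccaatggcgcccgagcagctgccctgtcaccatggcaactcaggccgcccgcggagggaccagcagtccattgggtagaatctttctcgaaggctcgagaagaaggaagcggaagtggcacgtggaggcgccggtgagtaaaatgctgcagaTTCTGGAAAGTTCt
Chordc1: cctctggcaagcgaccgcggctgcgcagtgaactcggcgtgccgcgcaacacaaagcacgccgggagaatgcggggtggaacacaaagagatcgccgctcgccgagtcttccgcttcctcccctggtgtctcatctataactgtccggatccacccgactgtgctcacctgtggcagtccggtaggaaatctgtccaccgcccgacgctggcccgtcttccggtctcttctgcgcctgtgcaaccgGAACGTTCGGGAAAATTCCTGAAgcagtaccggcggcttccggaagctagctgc
Hspa1a: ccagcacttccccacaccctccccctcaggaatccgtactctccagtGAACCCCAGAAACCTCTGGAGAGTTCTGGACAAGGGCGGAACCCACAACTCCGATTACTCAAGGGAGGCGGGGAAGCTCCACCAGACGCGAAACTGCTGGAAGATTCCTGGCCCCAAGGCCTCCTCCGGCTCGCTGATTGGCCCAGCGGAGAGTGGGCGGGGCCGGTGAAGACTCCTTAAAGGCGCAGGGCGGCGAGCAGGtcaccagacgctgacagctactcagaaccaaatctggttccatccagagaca
Hspa1b: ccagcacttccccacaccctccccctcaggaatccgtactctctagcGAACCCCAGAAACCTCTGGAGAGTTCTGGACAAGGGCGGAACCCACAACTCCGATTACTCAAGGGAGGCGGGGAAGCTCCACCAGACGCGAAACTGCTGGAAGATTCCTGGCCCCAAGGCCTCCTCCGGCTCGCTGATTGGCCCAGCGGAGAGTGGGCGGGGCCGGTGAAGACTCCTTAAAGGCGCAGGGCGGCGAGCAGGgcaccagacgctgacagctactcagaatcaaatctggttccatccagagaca

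The window table held 7 of the 10 genes, and *Hspa8*, *Hsp90aa1* and *Hsp90ab1* are named only. GAANNTTCNNGAA, searched on both strands with no mismatch, occurred in 198 of 32851 windows (0.603%). The window of *Chordc1* held 3 overlapping matches, and it was the only 1 of the 32851 windows with 3 or more. *Hsph1* held 1 match, beginning 37 bases after the start, which its 2 RefSeq windows share. No match was found in the windows of *Hspa1a*, *Hspa1b*, *Dnajb1*, *Hspb1* and *Hspa4*, which says only that these letters are not in them. With 1 mismatch allowed, 7.22% of all windows and 5 of the 7 genes matched, *Dnajb1* and *Hspa4* being without one. The windows of *Hspa1a* and *Hspa1b* were identical at 296 of 300 places and shared a stretch of 201 bases.

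Between genes, levels were compared only per length, as log2 CPM per kilobase of exon. On this scale *Hsp90ab1* was the highest of the 10 genes in each tissue and state, at 8.98 in Ctr cortex and 6.95 in Ctr liver, above the next gene in all 39 pools of each group. This order rests on the length used. On a second scale, reads per unique stretch, all reads of a gene were divided by its number of 100-base stretches found nowhere else in mm9. That is a density only if reads on shared stretches were not counted, which the sources used here do not give. On it Ctr liver had a median of 1.23 for *Hspa8* and 1.03 for *Hsp90ab1*. SD liver had 1.40 for *Hspa8*, 1.18 for *Hsp90aa1* and 1.17 for *Hsp90ab1*, whereas in cortex *Hsp90ab1* was the highest on that scale too. In Ctr cortex *Hsp90aa1* (5.75), *Hspa4* (5.67), *Hspa8* (5.45) and *Hsph1* (5.45) followed, and the gap between neighbours in this order was smaller than the s.d. of the more variable one. Per unique stretch they were further apart, with medians of 4.08 reads for *Hspa8*, 3.74 for *Hsp90aa1*, 1.87 for *Hsph1* and 1.40 for *Hspa4*, and the exons of *Hsph1* span 7042 bases but its transcript 3802. *Chordc1* (4.71) and *Dnajb1* (4.26) came next, and *Hspa1a* (0.85), *Hspa1b* (0.68) and *Hspb1* (0.57) were lowest, with gaps among these last 3 again within the s.d. of the more variable gene.

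The order per length changed with SD and tissue. In SD cortex *Hsph1* stood second at 6.28, in 22 of 39 pools above *Hspa8* (6.07), a gap within the spread, and *Hspa1a* (1.57) stood last. In Ctr liver *Hspa4* (5.89), *Hspa8* (5.34), *Chordc1* (5.25) and *Hsp90aa1* (5.18) followed *Hsp90ab1*, and of these gaps only that of *Hspa4* over *Hspa8* (0.55, in 39 of 39 pools) exceeded the s.d. of either gene. *Hspb1* was at 4.06 per kilobase in Ctr liver, between *Dnajb1* (4.28) and *Hsph1* (4.01), and *Hspa1a* was last at -1.55, below *Hspa1b* (2.15) in 39 of 39 pools.

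**Figure D2:**
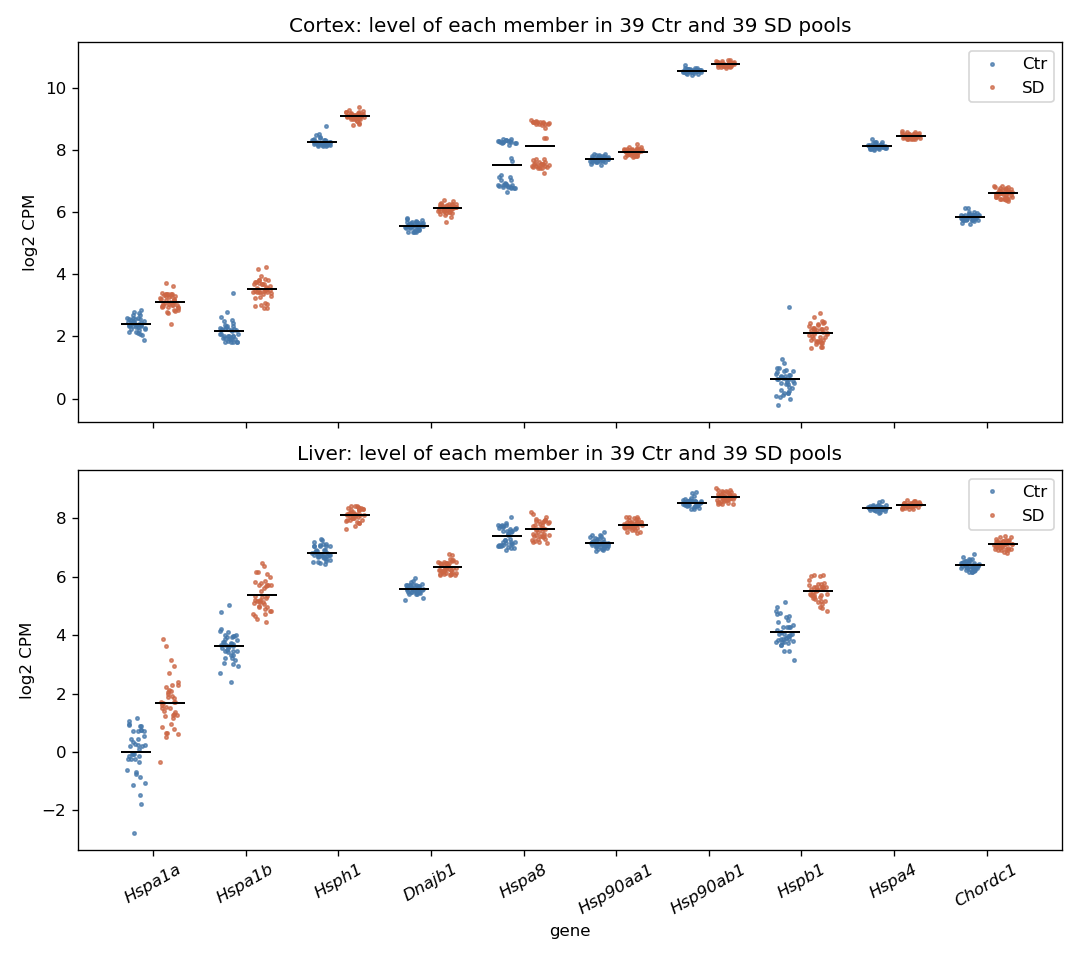
Level of each heat shock gene (log2 CPM, not divided by length) in 39 Ctr (blue) and 39 SD (orange) pools of cortex (top) and liver (bottom), with the mean of each group as a bar. *Hspa8* falls into separate bands of pools in cortex, *Hspa1a* is near 0 in Ctr liver, and 1 Ctr pool (BXD56) stands above the others for *Hspb1* in cortex at 2.96.

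The inducible HSP70 genes *Hspa1a* (chr17:35106144-35109069, minus strand, mm9) and *Hspa1b* (chr17:35093381-35096183, minus strand) share sequence: of the 100-base stretches in each transcript, 49.35% (*Hspa1a*) and 49.93% (*Hspa1b*) are also found in that of its partner. How reads that fit both were counted is not given in the sources used here, so the split between them is uncertain. In cortex *Hspa1b* was at 1.81 to 3.42 (median 2.09) log2 CPM in Ctr pools and at 2.90 to 4.25 (median 3.50) in SD pools, with 67 to 251 reads per Ctr pool. Its change was 1.35 (SE 0.070, adjusted p = 5.16e-30), higher after SD in 39 of 39 pools, though the smallest, that of BXD56, was 0.01. The highest Ctr pool, BXD56, overlapped the SD pools, 28 of which lay above it.

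In liver *Hspa1b* was at 2.40 to 5.04 (median 3.67) in Ctr and at 4.45 to 6.48 (median 5.26) in SD pools. Its change of 1.74 (SE 0.113, adjusted p = 3.81e-23), a fold change of 3.33, was the 9th largest rise of the 14107 genes in liver, and in cortex it was the 45th of 14896. The groups overlapped through BXD50 (5.04) and BXD101 (4.79) on the Ctr side, and the change of BXD50 was 0.09 against 2.86 in BXD43.

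*Hspa1a* in cortex was at 1.88 to 2.84 (median 2.40) in Ctr and at 2.39 to 3.71 (median 3.12) in SD pools, which overlapped. The change was 0.72 (SE 0.052, adjusted p = 1.41e-21) and ran from 0.00 in BXD89 to 1.26 in BD-F1. In liver it rested on few reads, 0 to 13 per Ctr pool (median 7) and 3 to 94 per SD pool (median 22), at -2.77 to 1.16 (median 0.21) and -0.35 to 3.85 (median 1.66) log2 CPM. The liver change of 1.69 (SE 0.190, adjusted p = 3.78e-12) was seen in 37 of 39 pools, the exceptions being BXD67 (-0.21) and BXD90 (-0.12), and was 1.24 with a prior count of 5 reads per library. With the reads of both genes summed, the change was 1.04 in cortex and 1.74 in liver, so the sum does not depend on how shared reads were split between them.

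In Ctr pools, though not in SD pools, the order of the pair within a tissue differed between cortex and liver. In Ctr cortex the mean log2 CPM was 2.40 for *Hspa1a* and 2.17 for *Hspa1b*, and in Ctr liver it was -0.01 and 3.63. Per kilobase, *Hspa1a* was above *Hspa1b* in 32 of 39 Ctr cortex pools and below it in 39 of 39 Ctr liver pools. The mean gap in Ctr cortex was 0.17, within the s.d. of *Hspa1b* (0.31). After SD *Hspa1b* was the higher one in 39 of 39 pools of each tissue, by 0.45 in cortex and 3.74 in liver.

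*Hspa8* (chr9:40609067-40613283, plus strand) encodes the constitutive HSP70, and 63.83% of its 100-base stretches occur elsewhere in mm9, at 7 other places, though not in the transcript of another gene. Its cortex levels fell into separate clusters rather than a single spread. In Ctr cortex 21 pools (D2-1, D2-2 and 19 BXD/RwwJ lines) were at 6.65 to 7.21, the F1 pools at 7.64 and 7.76, and 16 pools (B6-1, B6-2 and 14 lines) at 8.18 to 8.37 log2 CPM. After SD the clusters held the same pools, at 7.27 to 7.73, 8.38 in both F1 pools, and 8.72 to 8.98. The parental strains thus stood at opposite ends, with the F1 pools between them. The genotypes of the lines near the gene are not analysed here.

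The change of *Hspa8* in cortex did not follow the clusters in size. It was 0.63 ± 0.14 (s.d., n = 21) in the lower cluster, 0.60 ± 0.07 (s.d., n = 16) in the higher one, and 0.74 and 0.62 in BD-F1 and DB-F1, with no test since the clusters come from the values themselves. Over the 39 pools the change was 0.62 (SE 0.149, adjusted p = 0.000181), higher after SD in 39 of 39. Because that SE holds the distance between clusters, the line as a replicate block lowered it to 0.018 (adjusted p = 1.15e-31). The s.d. of the Ctr level (0.68) ranked 406th of 14896 genes and that of the change (0.12) 9610th.

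In liver the clusters of cortex overlapped. The pools of the lower cluster were at 6.90 to 7.58 in Ctr liver, those of the higher one at 7.47 to 7.83, and BD-F1 and DB-F1 at 7.58 and 8.03. The liver change was 0.23 (SE 0.066, adjusted p = 0.00282), with a fold change of 1.17, higher after SD in 38 of 39 pools and lower in DB-F1 (-0.11). As in cortex, that SE holds the spread between lines, whereas the change itself had an s.d. of 0.15 over the 39 pools. Since the pools cluster, no correlation over all pools is given, and within clusters the Ctr and SD levels of liver correlated over the 21 pools of the lower cluster (r = 0.64, adjusted p = 0.00532, rho = 0.60, adjusted p = 0.0174, permutation tests, r = 0.44 without the 2 outermost pools). The other 5 relations within clusters (Ctr with SD level in cortex for both clusters and in liver for the higher one, and cortex with liver Ctr level for both) had r from -0.11 to 0.46 and did not pass.

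**Figure D3:**
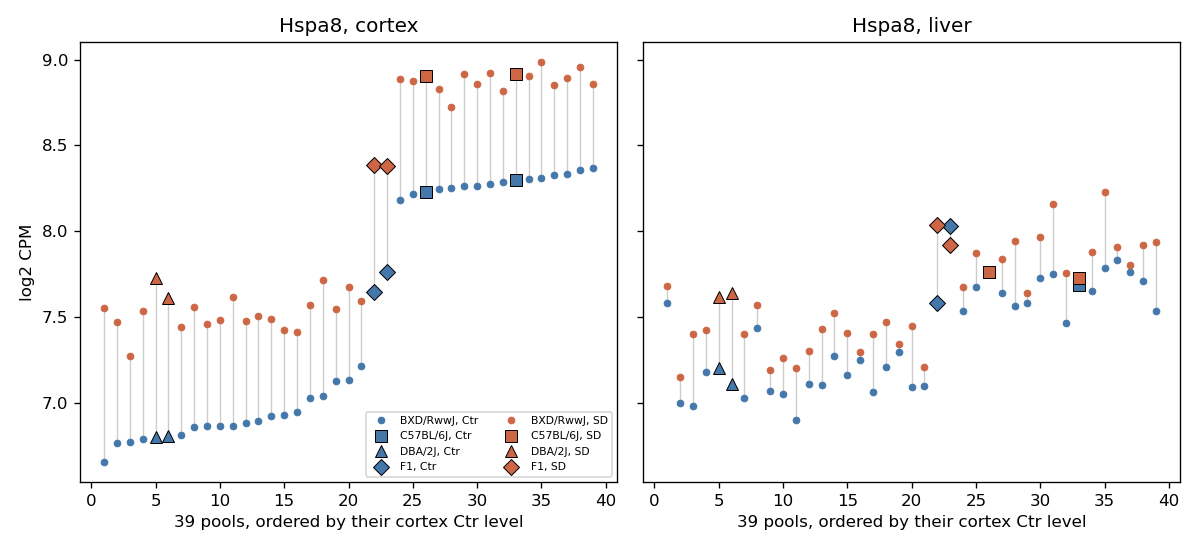
Level of *Hspa8* (log2 CPM) in the 39 pools of cortex (left) and liver (right), ordered in both panels by the Ctr level in cortex, with Ctr in blue, SD in orange and a line joining the 2 values of a pool. Squares are C57BL/6J, triangles DBA/2J, diamonds F1 and circles BXD/RwwJ pools. In cortex 21 Ctr pools sit at 6.65 to 7.21 and 16 at 8.18 to 8.37 with the F1 pools between, and in liver these ranges meet.

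*Hsph1* (chr5:150416862-150438951, minus strand), the main inducible HSP110, had the smallest p of all 14107 genes in liver. It was at 6.44 to 7.29 (median 6.76) in Ctr liver and at 7.63 to 8.43 (median 8.14) in SD liver, a change of 1.31 (SE 0.047, adjusted p = 9.46e-39) or 2.48-fold. In cortex it went from 8.13 to 8.78 (median 8.23) to 8.81 to 9.40 (median 9.10), a change of 0.83 (SE 0.027, adjusted p = 1.50e-42) or 1.77-fold. The groups did not overlap in either tissue, and the highest Ctr pool in cortex (BXD56, 8.78) lay just under the lowest SD pool (BXD89, 8.81).

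*Hspa4* (chr11:53073316-53113959, minus strand), a constitutive HSP110, changed little and evenly. In cortex it was at 7.99 to 8.35 (median 8.13) in Ctr and at 8.35 to 8.62 (median 8.45) in SD pools, a change of 0.33 (SE 0.016, adjusted p = 1.08e-30) in 39 of 39 pools. Only the Ctr pool of BXD97 reached the lowest SD pool there. In liver the ranges were 8.17 to 8.58 (median 8.35) and 8.31 to 8.61 (median 8.46), and the change was 0.10 (SE 0.018, adjusted p = 1.59e-06), seen in 33 of 39 pools.

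*Dnajb1* (chr8:86132074-86135801, plus strand), the HSP40 partner of HSP70, was at 5.35 to 5.83 (median 5.57) in Ctr cortex and at 5.70 to 6.38 (median 6.15) in SD cortex. Its change there was 0.56 (SE 0.029, adjusted p = 3.39e-30), in 39 of 39 pools, and 4 Ctr pools lay above the lowest SD pool, that of BXD51. In liver it went from 5.20 to 5.96 (median 5.57) to 6.05 to 6.79 (median 6.29), with no overlap and a change of 0.74 (SE 0.040, adjusted p = 9.56e-28). The mean Ctr log2 CPM was 5.57 in cortex and 5.59 in liver, which are not compared since the tissues were normalized apart.

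Of the HSP90 genes, *Hsp90aa1* (chr12:111928815-111940938, minus strand) is the inducible one, and 60.43% of its 100-base stretches occur elsewhere in mm9, not in the transcript of another gene. In cortex it was at 7.53 to 7.87 (median 7.71) in Ctr and at 7.78 to 8.19 (median 7.96) in SD pools, a change of 0.23 (SE 0.020, adjusted p = 2.85e-18) in 38 of 39 pools, BXD97 being the exception (-0.03). In liver it was at 6.90 to 7.54 (median 7.15) and 7.50 to 8.06 (median 7.80), a change of 0.63 (SE 0.033, adjusted p = 8.86e-29) in 39 of 39 pools. A single Ctr pool, DB-F1, overlapped the SD pools in liver, whereas 10 did in cortex.

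*Hsp90ab1* (chr17:45704724-45710220, minus strand), the constitutive HSP90, ranked 24th of 14896 genes by its mean log2 CPM in Ctr cortex and 17th in SD cortex. It was at 10.43 to 10.74 (median 10.56) in Ctr and at 10.64 to 10.92 (median 10.77) in SD pools, a change of 0.21 (SE 0.014, adjusted p = 3.40e-23) in 39 of 39 pools. In liver it was at 8.30 to 8.90 (median 8.52) and 8.48 to 9.06 (median 8.74), a change of 0.20 (SE 0.031, adjusted p = 1.34e-07) in 38 of 39 pools. Its cortex change had an s.d. of 0.07, which ranked 14296th of 14896 genes.

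*Hspb1* (chr5:136363789-136365433, plus strand), the small heat shock protein, had the largest mean change of the 10 genes in cortex, and 48.74% of its 100-base stretches occur at 1 other place in mm9. In Ctr cortex it was at -0.20 to 2.96 (median 0.63) log2 CPM with 18 to 183 reads per pool (median 32), and in SD cortex at 1.64 to 2.75 (median 2.12). The change was 1.49 (SE 0.091, adjusted p = 1.06e-25), a fold change of 2.81, in 38 of 39 pools. The exception was BXD56, whose Ctr value of 2.96 lay above every SD pool and whose change was -0.53, while no other Ctr pool was above 1.26. Without BXD56 the change was 1.54, and the remaining groups did not overlap.

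In liver *Hspb1* was at 3.13 to 5.12 (median 4.03) in Ctr and at 4.82 to 6.06 (median 5.55) in SD pools, a change of 1.40 (SE 0.084, adjusted p = 4.07e-25) in 39 of 39 pools. Here the parental strains differed in level and change. Ctr levels were 4.72 and 4.77 in the C57BL/6J pools and 3.67 and 3.88 in the DBA/2J pools, and the changes were 0.70 and 0.69 against 2.38 and 2.18. The F1 pools changed by 1.79 and 1.68, between the strains, and after SD the DBA/2J pools were the higher ones at 6.05 and 6.06 against 5.42 and 5.46. These are values of 2 pools per strain, and the difference between strains was not tested.

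*Chordc1* (chr9:18096711-18118444, plus strand), the HSP90 co-chaperone, was at 5.63 to 6.15 (median 5.82) in Ctr cortex and at 6.37 to 6.84 (median 6.61) in SD cortex, with no overlap and a change of 0.76 (SE 0.028, adjusted p = 7.58e-40). In liver it went from 6.16 to 6.77 (median 6.38) to 6.80 to 7.40 (median 7.12), again with no overlap and a change of 0.72 (SE 0.033, adjusted p = 5.63e-32). It ranked 33rd by p of all genes in cortex and 6th in liver.

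In the BXD/TyJ lines all 10 genes were higher after SD in 4 of 4 pools of both tissues, except *Hspa1a* in liver with 3 of 4, which were not tested. The cortex levels of *Hspa8* in these lines, 6.83, 6.97, 6.97 and 8.51 in Ctr pools, were also spread over the low and the high side.

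Parental pools differed in change for other genes too, given as values of 2 pools per strain with no test. In liver the changes of C57BL/6J and DBA/2J were 0.56 and 0.78 against 1.80 and 3.49 for *Hspa1a*, 0.52 and 0.39 against 0.90 and 0.99 for *Hsp90aa1*, and 1.38 and 1.05 against 1.67 and 1.75 for *Hsph1*. For *Hspa1a* the DBA/2J changes rest on Ctr levels of -1.14 and -1.79 log2 CPM and differ by 1.70 between the 2 pools. Ctr liver pools held 0 to 13 reads of this gene. In cortex the changes of the strains, in the same order, were 0.83 and 0.81 against 1.02 and 1.25 for *Hsph1*, and 0.17 and 0.18 against 0.46 and 0.39 for *Hsp90aa1*. The mean change of the DBA/2J pools was the larger one for all 10 genes in liver and for 8 of 10 in cortex, the exceptions being *Hspa1a* (0.86 against 0.94) and *Hspb1*, where the C57BL/6J pools had 1.82 and 1.89 against 1.39 and 1.38. Over all genes the DBA/2J pools had the larger mean change for 47.3% in liver and 52.8% in cortex. The log2 ratio of SD to Ctr library totals in liver, which the changes of *Hspa8* and *Hsp90ab1* followed, was 0.15 and 0.14 in the C57BL/6J and -0.18 and -0.27 in the DBA/2J pools, and its part in these values was not tested.

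A few pools stood apart for several of the genes. In cortex the Ctr pool of BXD56 was the highest of the 39 for *Hspa1a* (2.84), *Hspa1b* (3.42), *Hsph1* (8.78) and *Hspb1* (2.96), while that of BXD89 was the next highest for these and the highest for *Chordc1* (6.15). In liver the Ctr pool of BXD50 was the highest for *Hspa1a* (1.16), *Hspa1b* (5.04), *Dnajb1* (5.96) and *Hspb1* (5.12), and its change was the smallest of all pools for *Hspa1b* (0.09), *Hsph1* (0.48), *Hsp90aa1* (0.24) and *Chordc1* (0.24). That of DB-F1 was the highest for *Hspa8* (8.03), *Hsp90aa1* (7.54), *Hsp90ab1* (8.90), *Hspa4* (8.58) and *Chordc1* (6.77). The liver change of DB-F1 was the smallest for *Hspa8*, *Hsp90ab1* and *Hspa4* (each -0.11), and its Ctr library had the fewest reads of Ctr liver (5034166). By deviation from the group over all genes, BXD56 (a mean of 0.264 log2 CPM) and BXD90 (0.293) stood apart in Ctr cortex, where the median pool had 0.154, and BXD70 in SD liver (0.598 against 0.27). Without BXD50, BXD56 and BXD89, all 10 genes were still called higher in each tissue.

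Markers of other cells moved with some of these libraries. The Ctr cortex pool of BXD56 had the highest sums over the 4 astrocyte markers (1469 CPM, next highest 1144, median 937) and over the 5 markers of the striatum beside the cortex (318 CPM, next highest 207, median 132). Their part in the levels of the heat shock genes in that pool was not tested. None of the 6 hepatocyte markers was listed in cortex. Of the 6 neuron markers, *Snap25*, *Slc17a7*, *Gad1* and *Gad2* were not listed in liver. The other 2, *Syt1* and *Rbfox3*, summed there to 45.3 to 113 CPM in Ctr and 22.4 to 55.1 CPM in SD pools, with 1 called lower. The hepatocyte sum in liver was 2848 to 4752 CPM in Ctr and 3050 to 4208 CPM in SD pools. In cortex the 6 neuron markers summed to 7848 to 8890 CPM in Ctr and 7631 to 8566 CPM in SD pools. Of them 3 were called lower and 1 higher, where 35.4% and 33% of all genes were. Among lists of 4 markers in cortex, 2 were called higher for astrocytes and 2 lower for oligodendrocytes. For microglia 1 was higher and 2 lower, and for endothelium 2 were higher and 1 lower. In liver 4 of 4 B cell markers were called lower (median sum 12.3 against 5.17 CPM), where 22.6% of all genes were. In bulk tissue, fewer cells of a type and less RNA per cell cannot be told apart, and the part of these shifts in the changes was not tested.

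The difference between the tissues (liver change less cortex change) was tested pool by pool over 12695 genes (limma), of which 28% had a larger and 29.6% a smaller change in liver. Of the 10 genes, 5 rose more in liver: *Hspa1a* by 0.97 (SE 0.174, adjusted p = 6.28e-06, 29 of 39 pools), *Hsph1* by 0.48 (SE 0.045, adjusted p = 2.09e-12, 37 pools), *Hsp90aa1* by 0.40 (SE 0.026, adjusted p = 6.54e-17, 39 pools), *Hspa1b* by 0.39 (SE 0.107, adjusted p = 0.00178, 25 pools) and *Dnajb1* by 0.18 (SE 0.036, adjusted p = 3.72e-05, 31 pools). The constitutive *Hspa8* (-0.39, SE 0.027, adjusted p = 3.29e-16) and *Hspa4* (-0.22, SE 0.019, adjusted p = 2.41e-13) rose less in liver, the change being larger there in 0 and 1 of 39 pools. For *Hsp90ab1* (-0.01, 95% interval -0.06 to 0.03), *Hspb1* (-0.09, -0.27 to 0.08) and *Chordc1* (-0.04, -0.10 to 0.02) no difference was detected.

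The liver reads differed from those of cortex in depth and in how many fell on a base. Libraries held 18995492 to 28998853 counted reads in cortex and 4681101 to 8269401 in liver. Among genes with an exon length (93.33% in cortex, 93.7% in liver), the median read count per exonic base reached 44.7 in Ctr cortex, where 405 genes were above 2, but no more than 1.78 (*Alb*, which encodes albumin) in Ctr liver, where 0 genes were. The slope of log2 reads on the log2 library total, which would be 1 where a gene takes a fixed share of the library, had a median of 0.90 to 1.01 over genes in every density class of cortex. In Ctr liver it fell from 1.75 in genes of up to 0.01 reads per base to 0.23 in genes above 1. Whether duplicate reads were removed before counting is not given in the sources used here, and its part in this was not tested.

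Some heat shock genes had slopes well under 1 in liver. *Hsp90ab1* had 2206 to 2703 reads in Ctr liver and 2505 to 2974 in SD liver, 0.83 and 0.94 reads per exonic base at the median, with slopes of 0.33 and 0.24. *Hspa8* had 1.23 (Ctr) and 1.40 (SD) reads per unique stretch (all its reads over the number of these stretches), with slopes of 0.05 and 0.16. *Hsp90aa1* had 0.75 and 1.18, with slopes of 0.46 and 0.62. *Hspb1* had a slope of 1.08 in Ctr and 0.15 in SD liver, with 0.27 and 0.72 reads per unique stretch. For *Hspa4* the slopes in liver were 0.74 and 0.97, and for *Hsph1* 0.88 and 1.05. In cortex, with 14.3 reads per unique stretch, *Hsp90ab1* had a slope of 0.92 in Ctr pools. The part of this pattern in the size of the liver changes was not tested. The same holds for its part in the differences between tissues, those of *Hspa8*, *Hsp90aa1*, *Hsp90ab1* and *Hspb1* among them.

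The liver change of the same genes moved with the ratio of library totals. Over 39 pools the liver change of *Hspa8* fell with the log2 ratio of the SD to the Ctr total (r = -0.92, rho = -0.91, adjusted p = 0.0001 for each, permutation test, r = -0.91 without the 2 outermost pools), and so did that of *Hsp90ab1* (r = -0.90, rho = -0.90, adjusted p = 0.0001 for each, r = -0.88 without 2). The raw p of 1e-05 is the smallest that 100000 permutations can give. The other 18 of 20 relations, 10 in cortex and 8 in liver, did not pass, that of *Hsp90aa1* in liver being the nearest (r = -0.37, adjusted p = 0.145, permutation test). With the library total as a covariate the liver changes were 0.21 for *Hspa8* and 0.18 for *Hsp90ab1*, and both calls held.

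**Figure D4:**
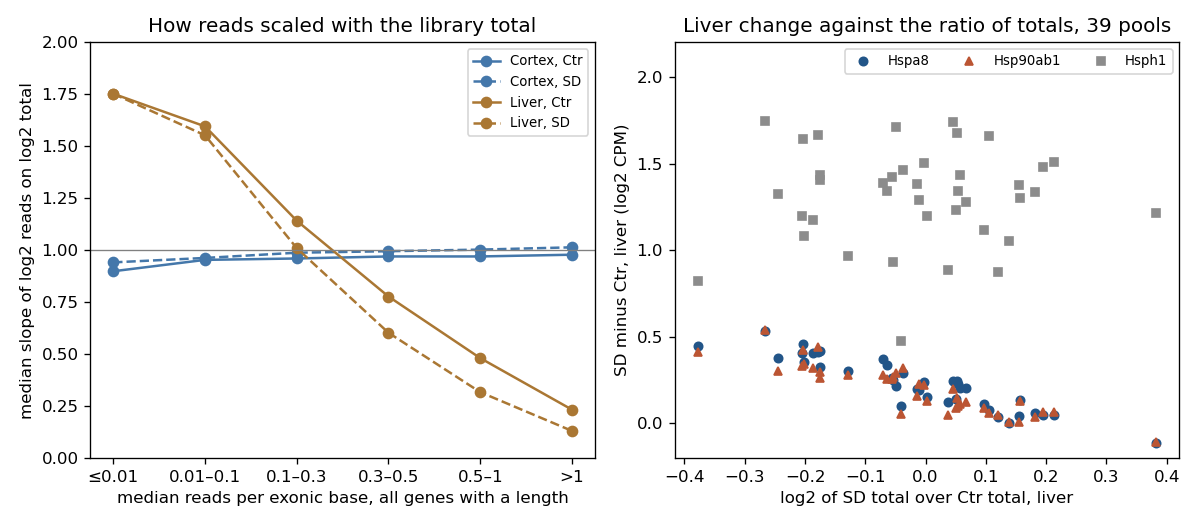
Left, the median slope of log2 reads on log2 library total over all genes in classes of median reads per exonic base, for Ctr (solid) and SD (dashed) pools of cortex (blue) and liver (brown), with a grey line at 1. Right, the liver change (log2 CPM) of *Hspa8*, *Hsp90ab1* and *Hsph1* in 39 pools against the log2 ratio of the SD to the Ctr total. The liver slopes fall from 1.75 to 0.23 (Ctr), and the points of *Hspa8* and *Hsp90ab1* fall to the right (r = -0.92 and -0.90) while those of *Hsph1* do not (r = 0.03).

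Whether the genes varied together over pools was examined with Pearson's r and Spearman's rho of their changes, with permutation tests adjusted over a family of 133 relations. Alternative settings left out the relations of levels and were adjusted over 100. In cortex 28 of 45 gene pairs passed by r and 24 by rho, all with positive r, and the median r of the 45 pairs was 0.48. An r above 0.5 was reached by 18 of the 45 pairs, while each of the 10 genes had it with 0.282% to 4.53% of all other genes. In liver 21 of 45 passed by r and 16 by rho, again all positive, with a median of 0.36, and 18 pairs passed in both tissues (18 of 28 and 18 of 21). Over the 33 BXD/RwwJ lines alone 13 pairs passed in liver, with a median r of 0.26. In liver 13 of 45 pairs were above 0.5, against 0.078% to 2.39% of all other genes for 8 of the 10 genes, but 13% for *Hspa8* and 12.8% for *Hsp90ab1*. For each of the 10 genes the median r with all other genes of the tissue lay between -0.09 and 0.01.

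In cortex the highest r was that of *Hspa1a* with *Hspa1b* (0.79, rho 0.78, 0.76 without the 2 outermost pools), genes whose reads may be shared. *Hsph1* followed with *Hspa4* (0.76, rho 0.65, 0.68 without 2) and *Hspa1b* (0.74, rho 0.71, 0.64 without 2), and *Hspa4* with *Chordc1* (0.71, rho 0.57, 0.58 without 2). The HSP90 genes correlated with each other at 0.69 (rho 0.71, 0.68 without 2). Each of these had an adjusted p of 0.000102 by r (permutation test), the smallest reached in the family. Lowest were *Hsp90aa1* with *Hspb1* (-0.02) and with *Hspa1a* (0.08).

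In liver the highest r was that of *Hspa8* with *Hsp90ab1* (0.95, rho 0.94, 0.93 without 2), the genes whose changes followed the ratio of totals. *Hsp90aa1* and *Chordc1* (0.80, rho 0.77, 0.72 without 2), *Hsph1* and *Chordc1* (0.78, rho 0.72, 0.73 without 2) and *Hsph1* and *Hsp90aa1* (0.77, rho 0.76, 0.71 without 2) came next, and then *Hspa4* and *Chordc1* (0.69, rho 0.67, 0.67 without 2) and *Hspa1b* and *Dnajb1* (0.69, rho 0.78, 0.66 without 2). *Hspa8* correlated above 0.8 with 652 genes of liver and *Hsp90ab1* with 606. When the fit on the log2 ratio of totals was taken out of every change, no gene remained above 0.8 with either, the pair stood at 0.68, and 33 of 45 pairs passed, including the 21.

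**Figure D5:**
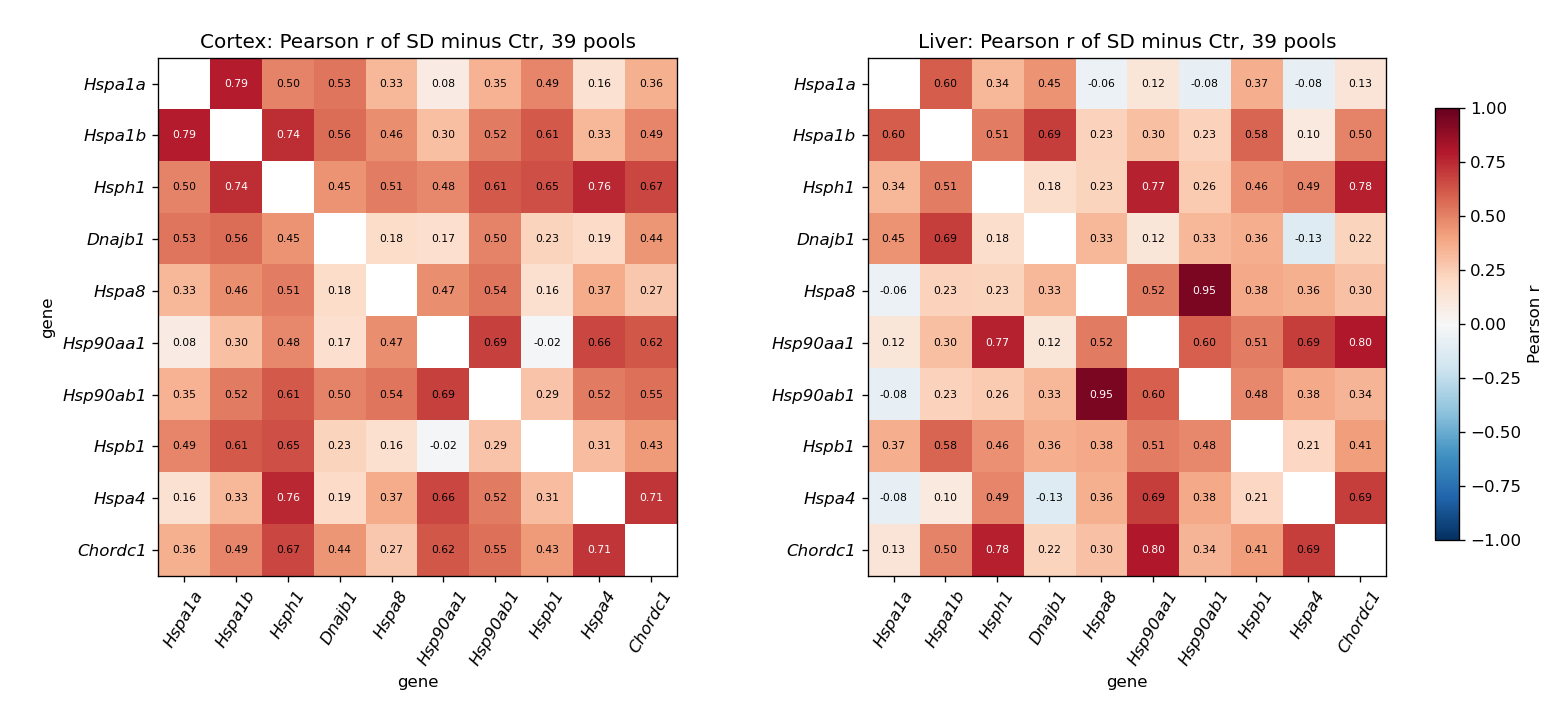
Pearson's r between the changes (SD minus Ctr, log2 CPM) of each pair of heat shock genes over the 39 pools of cortex (left) and liver (right), written in each cell and coloured from -1 (blue) to 1 (red). Nearly all cells are positive, the highest being *Hspa1a* with *Hspa1b* in cortex (0.79) and *Hspa8* with *Hsp90ab1* in liver (0.95).

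Between tissues, the changes of a gene in the same pool were weakly related. The r of cortex with liver change ran from 0.11 (*Hspa1a*) to 0.38 (*Dnajb1*) over the 10 genes, and 1 of 10 passed, *Dnajb1* (adjusted p = 0.0421, rho = 0.37 with adjusted p = 0.0588, permutation tests, r = 0.36 without 2). That call was lost over the 33 BXD/RwwJ lines alone (r = 0.31) and with parental pools averaged (r = 0.36). Ctr levels in cortex and liver were not correlated past the threshold for any of the 9 genes tested over all pools (r from -0.26 to 0.21). Ctr and SD levels correlated in cortex for *Hsp90ab1* (r = 0.43, adjusted p = 0.0158, rho = 0.37 with adjusted p = 0.056, r = 0.34 without 2), and in liver for *Hsp90ab1* (r = 0.48, adjusted p = 0.00668), *Hspb1* (r = 0.40, adjusted p = 0.0329), *Hsp90aa1* (r = 0.37, adjusted p = 0.0498) and *Hspa4* (r = 0.37, adjusted p = 0.0498), all permutation tests. In liver these 4 had rho of 0.50, 0.35, 0.33 and 0.42 (adjusted p of 0.00759, 0.0687, 0.0889 and 0.0247) and r of 0.47, 0.38, 0.32 and 0.38 without the 2 outermost pools.

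The 3 genes whose change was most like that of each heat shock gene over the 39 pools, out of all other genes of the tissue, are given as a description with r and no test. In cortex they were *Slc5a3* (0.88), *Hsp90b1* (0.84) and *Pdia3* (0.82) for *Hsph1*, and *Caprin1* (0.83), *Zdhhc5* (0.81) and *Ppp1r15b* (0.80) for *Hspa4*. For the HSP90 genes and *Chordc1* they were *Ahsa1* (0.80), *Stip1* (0.78) and *Tmem50b* (0.69) for *Hsp90ab1*, *Ranbp6* (0.75), *Yme1l1* (0.71) and *St13* (0.70) for *Hsp90aa1*, and *Hsp90b1* (0.81), *Hnrnph1* (0.78) and *Srsf10* (0.78) for *Chordc1*. *Stip1*, the adaptor that joins HSP70 to HSP90, rose by 0.56 (SE 0.022) in cortex, and *Hsp90b1*, the HSP90 of the endoplasmic reticulum, by 0.72 (SE 0.024). For the HSP70 genes they were *Stip1* (0.66), *Rpl7l1* (0.63) and *Tspan13* (0.61) for *Hspa8*, *Hspa1b*, *Tnfrsf25* (0.62) and *Ung* (0.62) for *Hspa1a*, and *Hspa1a*, *Hsph1* and *Wnt2* (0.71) for *Hspa1b*. *Dnajb1* was followed by *Chka* (0.77), *Pop5* (0.73) and *Clk2* (0.73), and *Hspb1* by *Tspan31*, *Otub2* and *Umps* (each 0.74).

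In liver the likest genes were other members of the 10 in several cases. They were *Stip1* (0.82), *Chordc1* and *Tmem33* (0.79) for *Hsp90aa1*, *Chordc1*, *Hsp90aa1* and *Hspa4l* (0.73) for *Hsph1*, and *Hsp90aa1*, *Hsph1* and *Tmem33* (0.76) for *Chordc1*. For the inducible HSP70 genes and their partner they were *Dnajb1*, *Bag3* (0.64) and *P4ha1* (0.60) for *Hspa1b*, *P4ha1* (0.68), *Hspa1b* (0.60) and *Sf3a1* (0.58) for *Hspa1a*, and *Hspa1b*, *Tmem106c* (0.68) and *Rbm38* (0.66) for *Dnajb1*. They were *Rela* (0.69), *Creld1* (0.66) and *Map3k11* (0.60) for *Hspb1*, and *Ubqln1* (0.78), *Hnrnpu* (0.74) and *Gnai3* (0.74) for *Hspa4*. For *Hspa8* they were *Plg*, *Aldh2* and *Gstm1* (each 0.95) and for *Hsp90ab1* *Cfi*, *Serpinf2* and *Hspa8* (each 0.95), and apart from *Hspa8* the changes of these genes were not called (0.03, 0.03, 0.01, 0.04 and 0.01). With the ratio of totals taken out, *St13* (0.74), which encodes an HSP70 co-chaperone, was the likest gene to *Hspa8*.

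Other genes of the heat shock system were counted from lists of known members, beside 33% of all genes called higher and 35.4% called lower in cortex, and 21.5% and 22.6% in liver. Of 57 listed genes, 38 were called higher in cortex, and of 53 in liver, 30. Among the heat shock factors, *Hsf1*, the main regulator, was higher in cortex (0.31, SE 0.017, adjusted p = 3.68e-29) and liver (0.29, SE 0.030, adjusted p = 4.81e-13). *Hsf2* (0.05) was called higher in cortex, and *Hsf4* (-0.24) and the factor-binding *Hsbp1* (-0.04) lower, while *Hsf5* there (-0.20, adjusted p = 0.0534) and *Hsf2*, *Hsf4* and *Hsbp1* in liver (0.00, -0.10 and 0.03) did not pass.

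Of 14 HSP90 co-chaperones in cortex 11 were called higher and 1 lower, with a median change of 0.26, from *Fkbp5* (0.97), a co-chaperone of the glucocorticoid receptor, to *Ppp5c* (-0.08). In liver it was 8 higher and 1 lower of 13, with a median of 0.23, from *Fkbp5* (1.30) to *Stub1* (-0.11). Of 15 HSP70 co-chaperones 11 were higher and 1 lower in cortex (median 0.14), and 10 and 1 in liver (median 0.10). *Dnajb5*, an HSP40, had the largest rise of these in cortex (0.94) and was the gene called lower in liver (-0.14), where *Dnaja4* rose most (0.55), and *Bag4* was the gene called lower in cortex (-0.08).

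Of 9 other HSP70 and HSP110 genes in cortex 5 were called higher and 1 lower (median 0.10), with *Hspa5*, the HSP70 of the endoplasmic reticulum, at 1.32 and *Hspa12a* at -0.14. In liver 2 of 8 were called higher and 0 lower (median -0.02), with *Hspa4l*, an HSP110, at 0.99, beside 21.5% of all genes called higher. Of 6 other small heat shock proteins in cortex 3 were higher and 2 lower (median 0.02), from *Cryab* (0.53) to *Hspb3* (-0.38), and in liver 2 of 5 were higher, *Hspb8* most (0.21), with a median of 0.13. Of 8 other genes known as heat shock factor targets, 6 were higher in cortex (median 0.27) and 7 in liver (median 0.20), with 0 lower, and *Serpinh1*, a collagen chaperone, led in both with 0.78 and 1.04.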

How the data were processed

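RNA-seq of cortex and liver was analysed in 172 libraries, 156 of them in the tests. The authors aligned single-end reads of stranded mRNA libraries with STAR (mm9), obtained counts for RefSeq genes from htseq-count, removed genes with low mean counts, normalized by edgeR's TMM method and deposited log2 CPM. Treatment of duplicate and multiply mapped reads is not given in the sources used here. Undoing these steps gave whole reads (within 0.02) for 100% of the values, with a prior count near 1, and no libraries were duplicates.

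SD and Ctr pools were compared with limma 3.58.1 (R 4.3.3, lmFit, then eBayes with a trend), without a block, and calls were made at an adjusted p under 0.05. Pools of the same line deviated together: the lowest correlation of their deviations was 0.299 in cortex and 0.169 in liver, the medians were 0.614 and 0.475, and pools of different lines had medians of -0.0197 and -0.018. The pairing comes from the line in the labels, and the line is the replicate block of an alternative. For the difference between tissues the pool was the unit. Correlations used 100000 permutations (two-sided, scipy 1.17.1). The fits and correlations were checked on simulated data. Exon lengths, transcripts and coordinates are those of the mm9 annotation, and promoters those of RefSeq.

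The genes and lists were chosen with earlier results of these data known. Named are all 10 genes, the 3 genes with the highest r to each in each tissue, the called gene of each list with the largest rise and fall in each tissue, and all heat shock factors. Pools named for their values were picked after these were seen. Alternatives were eBayes without a trend, voom on recovered reads, a prior count of 5 reads, median-centred libraries, a mean log2 CPM of at least 0, other sets of pools, *Hspa1a* and *Hspa1b* summed, leaving out each pool in turn and, chosen after seeing the data, the library total as a covariate, changes less their fit on the ratio of totals, the pools without those that stand apart, without BXD50, BXD56 and BXD89, and 1 mismatch in the motif.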

Additional observations from a re-analysis of the deposited data

Results flagged for a closer look

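The response to SD differed between the tissues for 7 of the 10 heat shock genes, tested on the liver change less the cortex change of every pool (limma, adjusted p under 0.05 over 12695 genes). Over all these genes, 28% had a larger and 29.6% a smaller change in liver, so such a call was common and not particular to the heat shock genes. The difference was 0.97 for *Hspa1a*, 0.39 for *Hspa1b*, 0.48 for *Hsph1*, 0.18 for *Dnajb1* and 0.40 for *Hsp90aa1*, all larger in liver, and -0.39 for *Hspa8* and -0.22 for *Hspa4*, both smaller in liver. Both tissues moved upward for each of the 7 genes, so the difference is one of size. For *Hspa8* it stands beside a slope of liver reads on the library total of 0.05 in Ctr and 0.16 in SD pools. These slopes were 0.46 and 0.62 for *Hsp90aa1*. For *Hspa1a* the difference stands beside a median of 7 reads per Ctr liver library.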

How the results depend on the processing

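Of 536 alternative values 5 gained and 2 lost their call, 5 counts moved by over 1.5 times, 2 changed sign, and the others kept their direction and side of the threshold. Those that changed sign are the r of the cortex with the liver change of *Hspa8*, 0.18 and not called, which was -0.0155 over the 33 BXD/RwwJ lines and -0.0903 with the ratio of library totals taken out. All 10 genes were called higher in cortex and in liver, and 7 of 10 differed between tissues, under every alternative run, including leaving out each of the 39 pools in turn (10 to 10, 10 to 10 and 7 to 7 calls). With the line as a replicate block, 10 and 10 genes were called and the listed heat shock genes called higher numbered 39 in cortex and 33 in liver, against 38 and 30; without the pairing of pools, the difference between tissues was called for 7 genes. The block changed no other call. The counts of correlated pairs were less stable. They and the calls between tissues were adjusted over 133 relations in the main setting but over 100 in the alternatives, so part of a difference can come from the adjustment. In liver the 21 pairs became 13 over the 33 BXD/RwwJ lines, all among the 21, and 33 with the ratio of library totals taken out, and in cortex the 28 became 21 and 31. The 1 gene whose changes correlated between tissues became 2 with the ratio taken out and 3 without BXD50, BXD56 and BXD89. *Dnajb1* lost this call at r = 0.31 (33 lines) and 0.36 (parental pools averaged), *Hspb1* gained it at 0.49, 0.39 and 0.35 (33 lines, parental pools averaged, ratio taken out), and *Hspa1b* (0.43) and *Hsph1* (0.44) gained it without those 3 lines. The cause was not tested. The count of genes with a promoter match went from 2 to 5 of 7 with 1 mismatch. Depth limits *Hspa1a* in liver, whose change was 1.24 to 1.78 over the alternatives.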
